A study of Canis lupus familiaris with 36 samples.

Results

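PD-L1, the product of the gene CD274, was measured by 2 of the 48 gene rows of a NanoString nCounter panel applied to canine oral squamous cell carcinoma (OSCC). The rows are named CD274 and PD-L1, and both were taken by name, as the panel's pair of probes for this gene. RefSeq lists PD-L1 and PDL1 as synonyms of the canine gene CD274 (gene ID 484186), on chromosome 1. Of the 48 rows, 44 are immune genes and 4 are housekeeping genes. The series holds 34 samples labelled tumor, spontaneous tumors of pet dogs with no treatment in their labels, and 2 labelled mucosal stroma, the normal oral mucosa of the study. RNA came from archived frozen and formalin-fixed tissue, and the labels name both kinds of extraction kit for every sample, so how each sample was preserved was not analysed here. A single dog is stated to have given both kinds of tissue, but its samples are not marked in the labels. The dogs are stated to be fewer than the tumors, so some tumors share a dog, and the p-values below, which treat every tumor as independent, measure the spread between samples.

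PD-L1 is a membrane ligand of PD-1, an inhibitory receptor of activated T cells. When PD-L1 on a tumor or myeloid cell engages PD-1, signalling through the T cell receptor and CD28 is damped, which is why the pair is called an immune checkpoint. Interferon γ released by T cells and NK cells is the best known inducer of PD-L1, and inflammatory signals such as TNF also raise it. The second ligand of PD-1, PD-L2, is encoded by PDCD1LG2 (gene ID 609699), which lies next to CD274 with 0 coding genes between them in the RefSeq annotation of the dog.

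The nCounter assay counts RNA molecules by hybridising a colour-coded probe to each transcript, without amplification. The values below are log2 of the deposited signal, whose geometric mean over the housekeeping genes was equal in all samples. A probe's efficiency differs from that of another, so the level of CD274 is not compared with that of PD-L1; what can be compared is how each varies between samples. Whole counts per sample could be recovered from the signals. Over the 48 rows the tumors held between 27092 and 665587 counts (median 224716), and the mucosa of patients 8 and 9 held 117883 and 149876. The tumors of patients 19, 21, 26 and 36 had under 100000 counts, and the other 30 tumors had more. The panel has neither an epithelial nor a general macrophage marker, so the tissue labels could not be checked against such genes. In bulk tissue, fewer cells of a type and less RNA per cell cannot be told apart.

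Transcripts of PD-L1 were found by both probes in every tumor and both mucosa samples. In the 34 tumors the CD274 probe ranged from 7.72 in patient 17 to 11.52 in patient 22, with a median of 9.60 and a mean of 9.57 ± 0.95 (SD, n = 34). This was a 14.0-fold span between the lowest and the highest tumor. The PD-L1 probe ranged from 6.02 in patient 12 to 9.58 in patient 20, with a median of 7.21 and a mean of 7.33 ± 0.83 (SD, n = 34). Its span was 11.8-fold. The mean of both probes on the log2 scale ran from 6.89 to 10.35, with a median of 8.40. The recovered counts were 33 to 4670 for CD274, with a median of 664.5, and 21 to 726 for PD-L1, with a median of 126. No sample fell to the background of its 6 negative controls (mean plus 2 SD). The count nearest to it was 4.07 times the background for CD274 and 2.47 times for PD-L1.

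The same tumors stood at the ends of both distributions. The 3 highest tumors by CD274 were also the 3 highest by PD-L1, namely those of patients 20, 22 and 23. Their CD274 values were 11.11, 11.52 and 11.35, and their PD-L1 values were 9.58, 9.02 and 8.71. At the low end the probes shared 2 of their 3 lowest tumors, those of patients 12 and 17, with CD274 at 8.29 and 7.72 and PD-L1 at 6.02 and 6.06. The 8 highest tumors by each probe had 6 in common, and the 8 lowest had 5 in common.

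**Figure D1:**
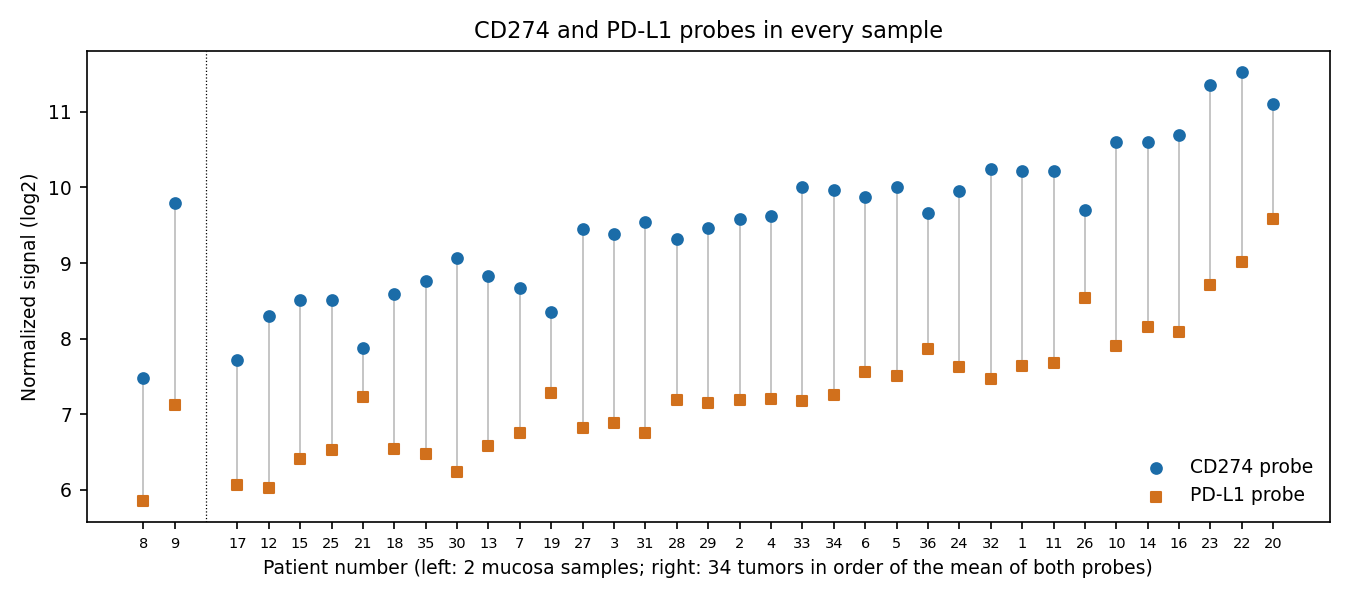
Normalized signal (log2) of the CD274 probe (circles) and the PD-L1 probe (squares) in each of the 36 samples, with the 2 mucosa samples left of the dotted line and the 34 tumors to the right in order of the mean of both probes. The mucosa samples lie far apart, and the line joining the probes is short in the tumors of patients 19, 21 and 26.

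Neither probe differed between OSCC and mucosa beyond the test's threshold, and the mucosa samples differed from each other by more than tumors differed from mucosa on average. In the mucosa of patient 8 the CD274 probe read 7.48 and in that of patient 9 it read 9.80, a 4.99-fold difference. The PD-L1 probe was at 5.85 and 7.13 in the same samples, a 2.42-fold difference. By both probes the mucosa of patient 8 was below every one of the 34 tumors. The mucosa of patient 9 lay inside the range of the tumors, with 14 tumors above it by CD274 and 22 by PD-L1.

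The CD274 probe was higher in tumors by 0.93 on the log2 scale (SE 0.71, 95% interval -0.50 to 2.36, limma adjusted p = 0.311). For the PD-L1 probe the difference was 0.83 (SE 0.62, 95% interval -0.42 to 2.08, limma adjusted p = 0.311). Neither was called at an adjusted p of 0.05, whereas 15 of the 44 immune rows (34.1%) were. The mean of both probes differed by 0.88 (two-sided exact permutation test, 630 splits, p = 0.176). The size of the difference, and for CD274 its direction, rested on the mucosa of patient 8. Without that sample the difference was -0.23 for CD274 and 0.20 for PD-L1, and without the mucosa of patient 9 it was 2.09 (limma adjusted p = 0.106) and 1.47 (limma adjusted p = 0.223). The median difference over all 44 immune rows was itself 0.91. After each sample was rescaled to the same median over the immune rows, CD274 and PD-L1 were lower in tumors, at -0.28 and -0.37, neither of them called.

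The positive controls divided the samples into a first batch of 9, which were both mucosa samples and 7 tumors, and a later batch of 27 tumors. These batches are inferred from the controls. First and later follow the order of the patient numbers, not a known date. Within the first batch the differences of CD274 and PD-L1 were 0.98 and 0.76, close to those over all samples. Neither passed an exact permutation test, two-sided (p = 0.139 and p = 0.0833, where 7 against 2 samples cannot give a p below 0.0278). Among tumors, the later batch minus the first was -0.07 for CD274 (permutation p = 0.866) and 0.10 for PD-L1 (permutation p = 0.787). Tumors of the later batch were more spread, with an SD of 1.04 against 0.50 for CD274 and 0.92 against 0.34 for PD-L1.

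Of the 6 genes listed for the PD-1 pathway and its neighbours in the CD28 family, 3 were called higher in tumors and none lower, with a median difference of 1.59 for the list. Over all 44 immune rows 14 were called higher and 1 lower, with a median difference of 0.91. Whether the list differs from the panel was not tested. The 3 called rows of the list were receptors of T cells. PD-1, the receptor of PD-L1, was higher by 3.88 (limma adjusted p = 0.0033), CTLA4, an inhibitory receptor that competes with CD28, by 2.23 (limma adjusted p = 0.0174), and the costimulatory receptor ICOS by 2.20 (limma adjusted p = 0.0174). In all 34 tumors PD-1 was above both mucosa samples, whose 9 and 11 counts were under the background of their negative controls. With values raised to the background its difference was 3.05. Fits without 1 mucosa sample rest on the other alone, so for these 3 rows only sizes are given. Without the mucosa of patient 8, PD-1 was at 3.81, CTLA4 at 3.41 and ICOS at 3.22. Without that of patient 9 they were at 3.94, 1.06 and 1.18. With equal medians CTLA4 and ICOS were at 1.03 and 0.99, neither called. The 3 rows that were not called were CD28 at 0.98 (limma adjusted p = 0.318) and the ligands PDCD1LG2 at 0.60 (limma adjusted p = 0.499) and ICOSLG at 0.23 (limma adjusted p = 0.788). PDCD1LG2 was at 7.78 and 8.46 in mucosa against 8.72 ± 0.97 (SD, n = 34) in tumors, with 20 tumors above the pair of mucosa samples and 6 under it. Once the batch entered the model none of the 6 was called, and PD-1 had a difference of 2.29 (limma adjusted p = 0.0773). Of the 4 interferon-related rows, MX1, an antiviral gene induced by type I interferon, was called (2.19, limma adjusted p = 0.0232), but not with the batch in the model (1.46, limma adjusted p = 0.199) or with equal medians (0.99, limma adjusted p = 0.292). IFNγ was not (0.66, limma adjusted p = 0.311), nor were IL 18 (1.80, limma adjusted p = 0.137) and TNFSF10 (-0.21, limma adjusted p = 0.799). For IFNγ the call depended on the test. Its mucosa values were 6.05 and 5.99, and 28 of the 34 tumors were above both. An unequal-variance test called it (adjusted p = 9.31e-06), and an exact permutation test did not (adjusted p = 0.260).

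Across tumors the probes rose and fell together. Pearson's r between CD274 and PD-L1 was 0.836 over the 34 tumors (95% interval 0.694 to 0.915, permutation p = 1e-05, the smallest that 100000 permutations can give), and Spearman's rho was 0.838 (permutation p = 1e-05). This r corresponds to 69.8% of shared variance. Without the 2 tumors farthest from the median of CD274 r was 0.793. It was 0.937 in the 7 tumors of the first batch (permutation p = 0.00069) and 0.836 in the 27 of the later batch. Over the 30 tumors with at least 100000 counts r was 0.936, or 87.5% of shared variance. Where the 2 farthest tumors are left out below, they are those farthest from the median of the measure in question. The pair can therefore differ between CD274, PD-L1, their mean and their difference.

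**Figure D2:**
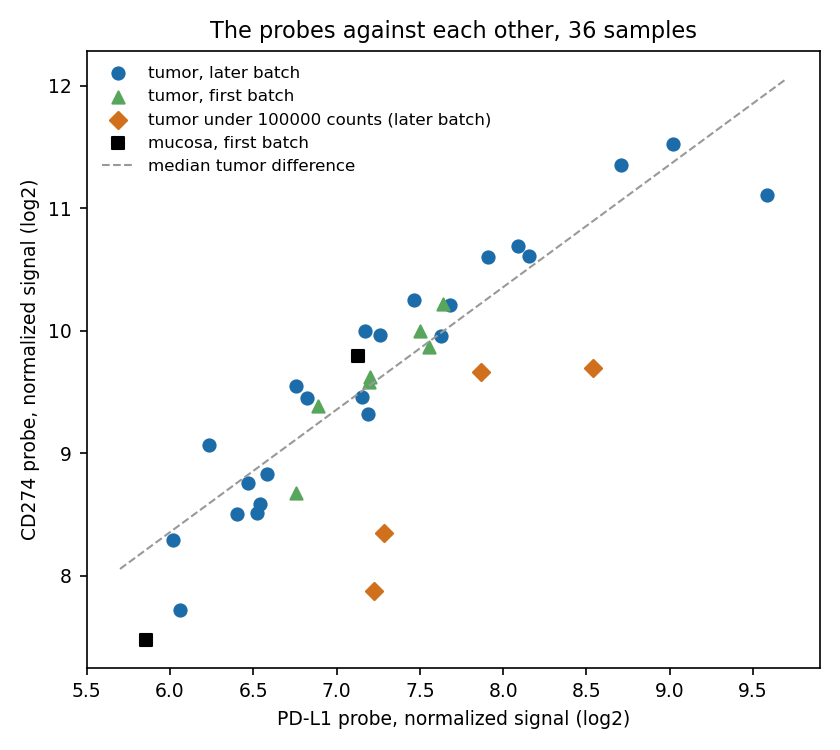
CD274 probe against PD-L1 probe (normalized signal, log2 on both axes) in 36 samples, one point each, marked by batch and by total count, with a dashed line at the median difference of the tumors. The 4 tumors under 100000 counts all lie below the line, where PD-L1 is high for its CD274 value.

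The difference between the probes was small in the tumors of low depth. CD274 minus PD-L1 had a median of 2.36 over the tumors, a 5.12-fold ratio of signals, and ranged from 0.65 in patient 21 to 2.83 in patients 30 and 33, with a mean of 2.24 ± 0.52 (SD, n = 34). The 4 tumors under 100000 counts had differences of 0.65, 1.07, 1.16 and 1.80, all below that median. In the other 30 tumors the mean was 2.38 ± 0.33 (SD, n = 30), and in the mucosa samples the difference was 1.62 and 2.67. The ranks of some tumors therefore depended on the probe. The tumor of patient 21 ranked 33 of 34 by CD274 and 17 by PD-L1, that of patient 19 ranked 31 and 15, and that of patient 26 ranked 15 and 4.

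Counting error was smaller than this spread. The SD expected from counting alone was 0.161 over the 34 tumors, and 0.140 against an observed 0.330 over the 30 deeper tumors. The exact 95% counting interval of the difference lay wholly below the median in 8 tumors, which included the 4 of low depth, wholly above it in 11, and held it in 15. Patient 20, the highest tumor by PD-L1, had a difference of 1.52 (95% counting interval 1.36 to 1.69). Its total of 171150 counts was above the minimum, and its housekeeping count, described next, was the lowest of the 30 deeper tumors. These intervals cover counting error only.

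The geometric mean count of the 4 housekeeping rows, ALAS1, GUSB, RPL30 and SDHA, was used as a measure of how much RNA a sample gave. Over the 34 tumors the difference between the probes rose with it (r = 0.796, rho = 0.759, both permutation p = 1e-05 and adjusted p = 6e-05 over 12 technical relations). The relation was r = 0.637 without the 2 tumors farthest in housekeeping counts. It was 0.598 in the first batch, 0.822 in the later batch and 0.625 in the 30 deeper tumors. By itself neither probe was related to the housekeeping counts past an adjusted p of 0.05, with r = 0.297 for CD274 (adjusted p = 0.131), -0.161 for PD-L1 (adjusted p = 0.432) and 0.0872 for their mean (adjusted p = 0.680). With these counts held constant by a linear fit, r between the probes was 0.938. Total counts include the immune genes themselves. With them the difference had r = 0.860 (rho = 0.838, adjusted p = 6e-05 for each), CD274 had r = 0.535 (adjusted p = 0.0044) and PD-L1 r = 0.0706 (adjusted p = 0.692). CD274 was also related to the background counts (r = 0.412, adjusted p = 0.0462), though not by rho (0.345, adjusted p = 0.095).

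**Figure D3:**
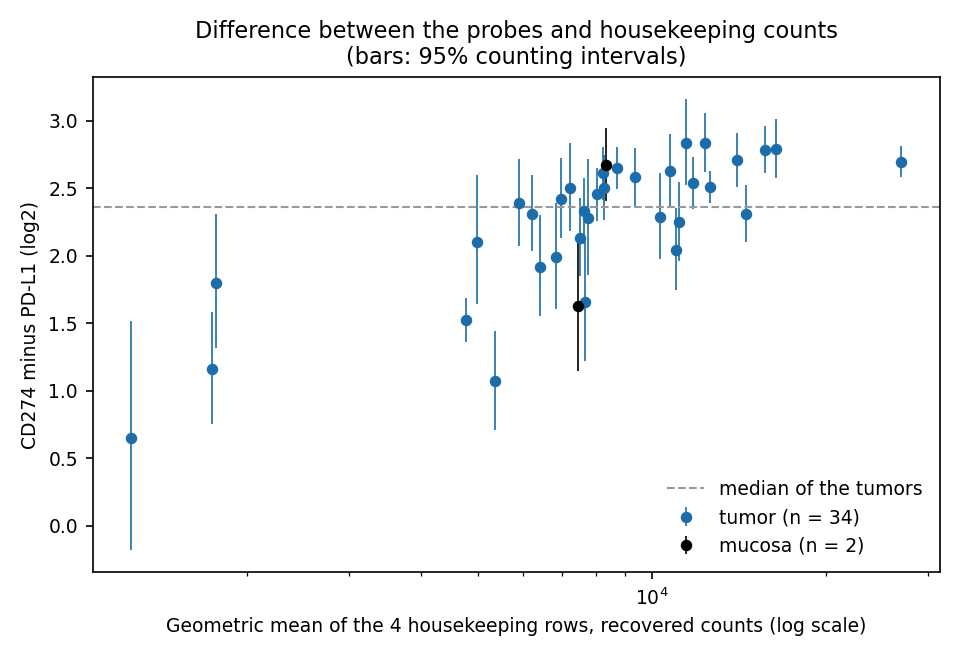
CD274 minus PD-L1 (log2) against the geometric mean of the housekeeping counts (log axis) in 34 tumors and 2 mucosa samples, with bars for exact 95% counting intervals and a dashed line at the tumor median of 2.36. The difference rises from left to right, from 0.65 in the shallowest tumor.

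To ask which immune genes varied with PD-L1 between tumors, each probe, their mean and their difference were correlated with the other 42 immune rows, and p-values were adjusted over the 42 for each measure. With the mean of both probes 5 rows (11.9%) were related, all of them positively. They were CXCL2, TNF, GZMB, IL8 and IFNγ. CXCL2 and IL8 encode chemokines that attract neutrophils, TNF is an inflammatory cytokine of macrophages and T cells, GZMB is the granzyme that cytotoxic T cells and NK cells deliver to their targets, and IFNγ is their main interferon. With CD274 alone 5 rows (11.9%) were related, and with PD-L1 alone 4 rows (9.52%). CXCL2, TNF and GZMB were called with CD274, with PD-L1 and with their mean.

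CXCL2 had the highest r with the mean of both probes and with CD274, and the lowest of the 4 called with PD-L1. Its values ranged from 8.98 to 16.09 in tumors, with a median of 13.32, and its r with the mean of both probes was 0.668 (permutation p = 7e-05, adjusted p = 0.0021). Its rho was 0.723 (permutation p = 2e-05, adjusted p = 0.00084). The relation was 0.744 with CD274 (adjusted p = 0.00042) and 0.522 with PD-L1 (adjusted p = 0.0155). Without the 2 farthest tumors it was 0.698 with the mean. In the tumor of patient 22, with a mean PD-L1 level of 10.27, CXCL2 was at 16.09, the highest of all tumors, and in that of patient 15, at 7.45, it was at 9.40. Patient 20, which had the highest mean level of 10.35, was below the median in CXCL2, at 12.98.

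TNF came next, with r = 0.609 with the mean (permutation p = 1e-04, adjusted p = 0.0021) and rho = 0.644 (permutation p = 9e-05, adjusted p = 0.00189). Its r was 0.580 with CD274 and 0.587 with PD-L1. The highest TNF value, 10.24, was that of patient 20. Without the 2 farthest tumors r with the mean was 0.505. With PD-L1 alone, and without the 2 tumors farthest by PD-L1, r was 0.449 and no longer called (adjusted p = 0.110). For GZMB r was 0.571 with the mean and rho 0.578 (for each, permutation p = 0.00041 and adjusted p = 0.00574), and r was 0.564 with CD274 and 0.528 with PD-L1. It was at 11.12 in patient 22 and at 5.89, its lowest value, in patient 15. Without the 2 tumors farthest by the mean, its r with the mean was 0.481 (adjusted p = 0.0454). It was not called with CD274 (r = 0.464, adjusted p = 0.0782) or with PD-L1 (r = 0.434, adjusted p = 0.110), each without the 2 tumors farthest by that probe.

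IL8 and IFNγ were nearer the threshold. IL8 ranged from 10.37 in patient 15 to 18.60 and had r = 0.472 with the mean (permutation p = 0.00491, adjusted p = 0.0412) and rho = 0.491 (permutation p = 0.00381, adjusted p = 0.0341). Its r was 0.502 without the 2 farthest tumors, and 0.450 over the 30 deeper tumors, where it was not called (adjusted p = 0.112). IFNγ ranged from 5.58 in patient 17 to 8.15, on 27 to 309 counts. With the mean its r was 0.470 (permutation p = 0.00475, adjusted p = 0.0412) and its rho 0.484 (permutation p = 0.00406, adjusted p = 0.0341), and r was 0.480 without the 2 farthest tumors. It was called with PD-L1 (r = 0.542, adjusted p = 0.0155) and not with CD274 (r = 0.370, adjusted p = 0.144), and its r with the difference between the probes was -0.188 (adjusted p = 0.509). Over the 30 deeper tumors the r values of IFNγ were 0.651 with CD274, 0.540 with PD-L1 and 0.608 with the mean, all called. With the difference between the probes its r was positive there, at 0.452, and also called (adjusted p = 0.0429). IFNγ itself had r = -0.425 with the housekeeping counts.

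**Figure D4:**
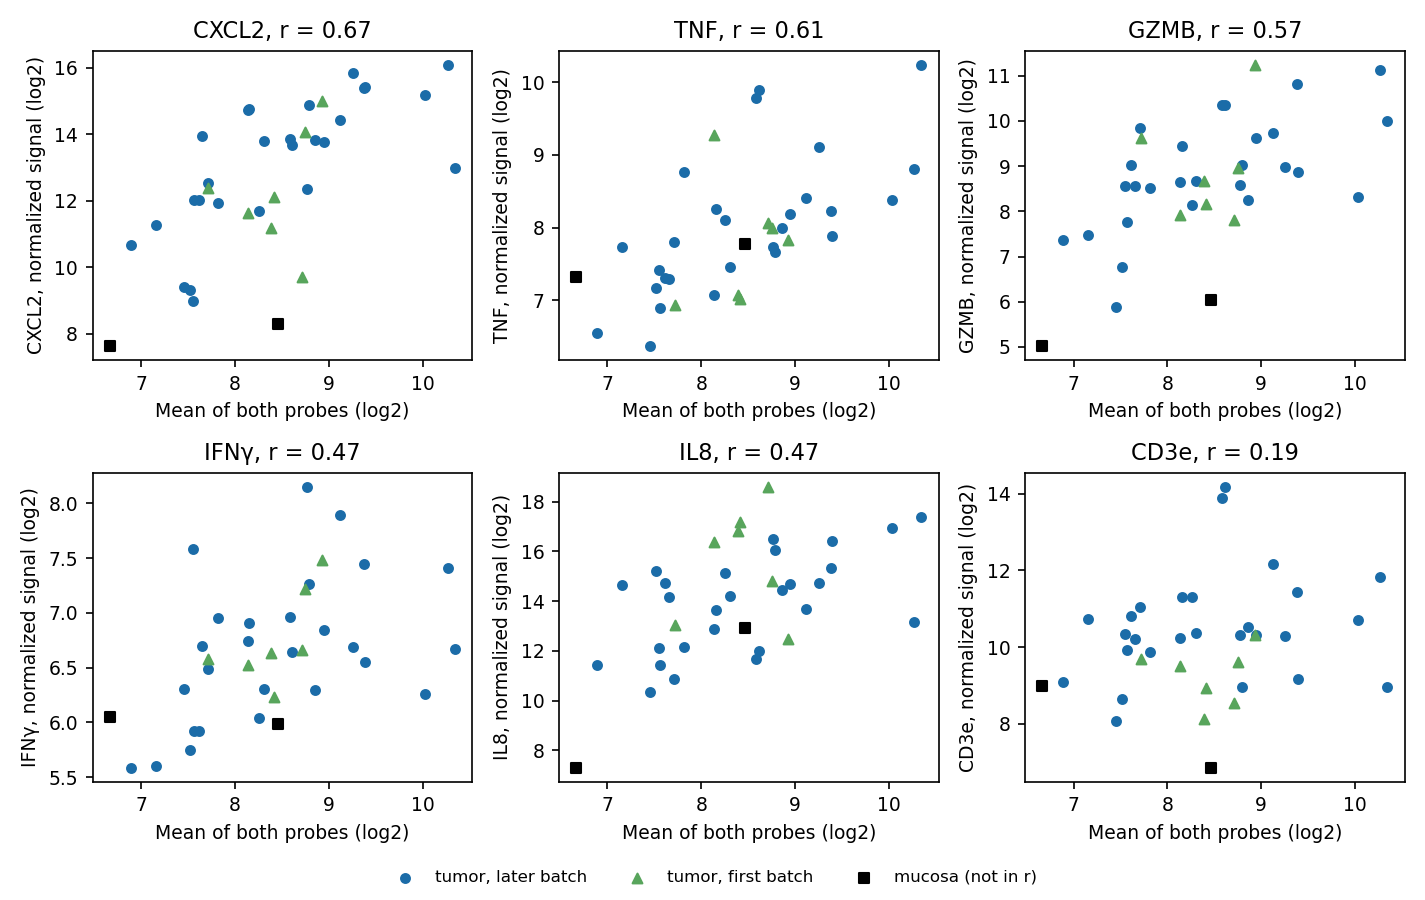
Normalized signal (log2) of CXCL2, TNF, GZMB, IFNγ, IL8 and CD3e against the mean of both probes (log2), with tumors of the first batch as triangles, those of the later batch as circles and mucosa as squares. Pearson's r over the 34 tumors, printed above each panel, falls from 0.67 for CXCL2 to 0.19 for CD3e, and the mucosa samples are low in CXCL2 and GZMB for their level of both probes.

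Within the batches the 5 relations had unequal values, and whether they differ between batches was not tested. Over the 27 tumors of the later batch r with the mean was 0.724 for CXCL2, 0.662 for TNF, 0.625 for GZMB, 0.577 for IL8 and 0.462 for IFNγ, and IFNγ was not called there (adjusted p = 0.131). In the 7 tumors of the first batch, where PD-L1 varied little, r was 0.306, 0.186, 0.224, 0.0984 and 0.643 for the same genes. With both variables taken as deviations from their batch means, r was 0.678, 0.613, 0.571, 0.503 and 0.471, and IFNγ was not called (adjusted p = 0.0685).

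T cell genes as a list had low correlations with PD-L1, as did the panel as a whole. Of all 42 other immune rows, 5 (11.9%) were called with the mean. Of the 16 T cell rows, only GZMB was called by Pearson's r over all 34 tumors on the deposited values with nothing held constant. It was called with the mean, with CD274 and with PD-L1. TBX was also called with CD274 by Spearman's rho (adjusted p = 0.0468). With values raised to background, TBX was called with CD274 by Pearson's r as well (r = 0.457, adjusted p = 0.0444). The median r of the list with the mean was 0.227, against 0.152 over all 42 rows. CD3e, part of the T cell receptor complex, had r = 0.189 (95% interval -0.160 to 0.495, adjusted p = 0.547), and CD8a, the coreceptor of cytotoxic T cells, 0.131 (95% interval -0.217 to 0.449, adjusted p = 0.645). The cytotoxic genes PRF1, which encodes perforin, and GZMA were closer, at 0.372 and 0.356. TBX, the row of the transcription factor T-bet, was at 0.365. None of these was called (adjusted p = 0.172 for each). Without the 2 farthest tumors PRF1 was called with the mean (r = 0.469, adjusted p = 0.0454). The tumors of highest PD-L1 had CD3e values on either side of the tumor mean of 10.28, at 8.97 in patient 20, 11.83 in patient 22 and 10.69 in patient 23. With CD3e held constant by a linear fit, r with the mean was 0.663 for CXCL2, 0.614 for TNF, 0.593 for IL8 and 0.581 for GZMB, all called, and 0.444 for IFNγ (adjusted p = 0.0531). TBX was called under this setting as well (r = 0.469, adjusted p = 0.0401), and also with CD274 (r = 0.499, adjusted p = 0.0198).

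In the PD-1 pathway list 0 of 6 rows were related to CD274, PD-L1 or their mean. Of all 42 other immune rows, 5 (11.9%) were related to CD274, 4 (9.52%) to PD-L1 and 5 (11.9%) to the mean. By permutation of Pearson's r with the mean, CTLA4 was the only one of the 6 with an unadjusted p below 0.05 (r = 0.351, p = 0.0412, adjusted p = 0.172). PD-1 itself had r = 0.150 with the mean (95% interval -0.198 to 0.465, adjusted p = 0.639). PDCD1LG2, the neighbouring ligand gene, had r = 0.215 (95% interval -0.133 to 0.516, adjusted p = 0.465), while its r with CD3e was 0.702 over the same tumors (adjusted p = 0.000157 over 861 pairs of the other rows). CD28 had r = 0.254, ICOS 0.274 and ICOSLG -0.169 with the mean of both probes. With CD3e held constant, ICOSLG was called with CD274 (r = -0.459, adjusted p = 0.0363). A p that misses the threshold does not show that these genes varied independently of PD-L1, and the intervals allow moderate relations.

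Among the 4 interferon rows 1 was called with each measure, TNFSF10 with CD274 and IFNγ with PD-L1 and with the mean. The call of TNFSF10 was lost without the 2 farthest tumors (r = 0.370, adjusted p = 0.311), in the 30 deeper tumors (r = 0.371, adjusted p = 0.174) and with the housekeeping counts held constant (r = 0.423, adjusted p = 0.0895). MX1 had r = 0.0608 with the mean (adjusted p = 0.833) and IL 18 had 0.248 (adjusted p = 0.385). In the myeloid and antigen-presenting list of 11, the rows called were CXCL2, TNF and IL8 with CD274 and with the mean, and CXCL2 and TNF with PD-L1. The other rows of this list had lower values, with CD40 at 0.135, the monocyte chemokine CCL2 at 0.101, IL6 at 0.0424, IL10 at -0.131 and CLEC4C, a marker of plasmacytoid dendritic cells, at -0.139. The median r of the 11 was 0.101. At the other end of the 42 rows, CD70, a ligand of the TNF family, had r = -0.320 (adjusted p = 0.253) and IL12 had -0.281 (adjusted p = 0.350), neither called.

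**Figure D5:**
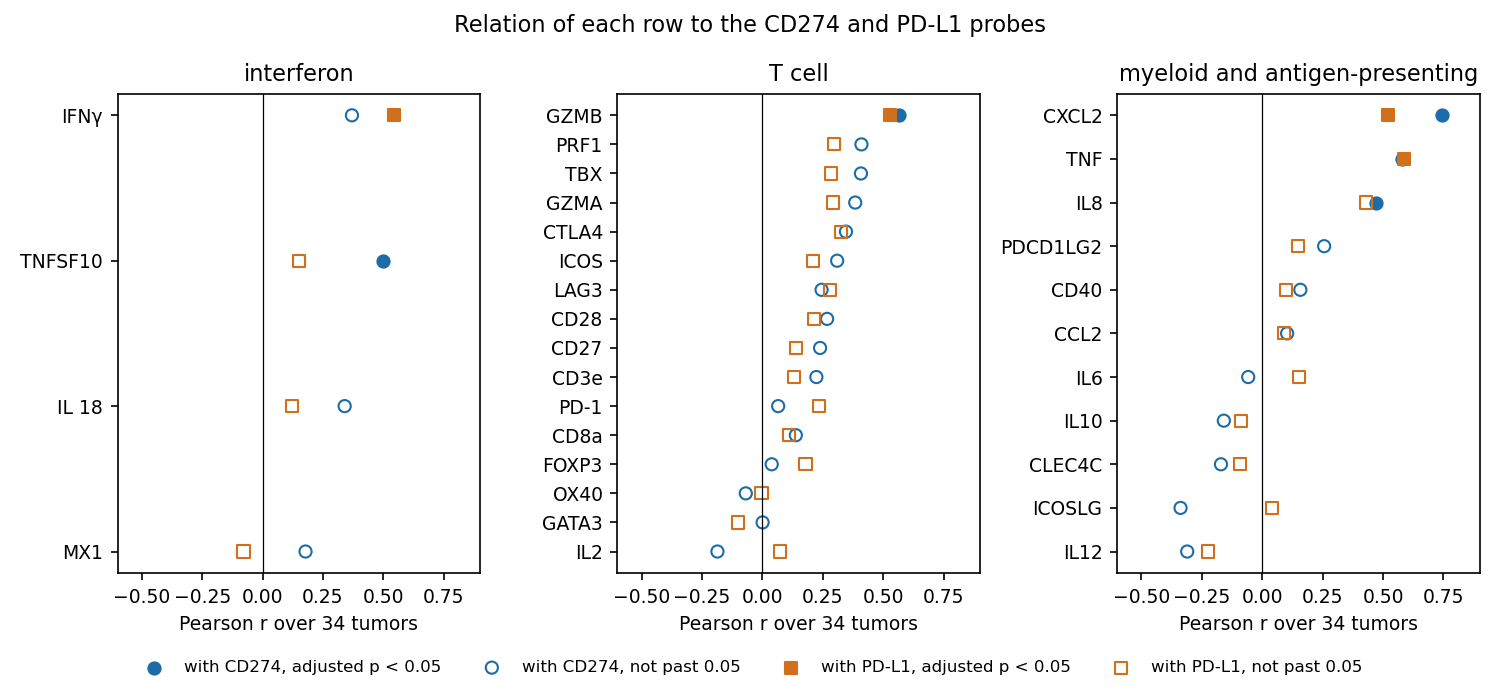
Pearson's r over 34 tumors of each row of the interferon, T cell and myeloid lists with the CD274 probe (circles) and the PD-L1 probe (squares), filled where the adjusted p over 42 rows was below 0.05. GZMB, CXCL2 and TNF are filled for both probes, and most T cell rows have open markers.

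PD-L1 was related to fewer rows than most of the panel. When each of the other 42 rows was treated in the same way, it was related to a median of 18.5 of the remaining 41 (45.1%, range 0 to 27), and CD3e was related to 27. More rows than CD274 were reached by 27 of the 42, and more than PD-L1 by 29. The rows related to PD-L1 were in part related to each other. CXCL2 and GZMB had r = 0.681, GZMB and IFNγ 0.582, and GZMB and TNF 0.537, whereas CXCL2 and IL8 had 0.0681. IL8 fell where CD8a rose (r = -0.521, adjusted p = 0.00779 over 861 pairs).

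Rows that moved with the difference between the probes were sought by their r with it. The probes have unlike SDs (0.95 for CD274 and 0.83 for PD-L1). This r is therefore not a test of whether a row's r with CD274 and its r with PD-L1 differ. There were 3 such rows (7.14%). TNFSF10, which encodes the death ligand TRAIL, had r = 0.666 with CD274 minus PD-L1 (permutation p = 4e-05, adjusted p = 0.00084) and rho = 0.579 (permutation p = 0.00042, adjusted p = 0.00882), beside r of 0.500 with CD274 and 0.152 with PD-L1. CXCL2 had r = 0.524 (permutation p = 0.00136, adjusted p = 0.0190) and rho = 0.615 (permutation p = 0.0001, adjusted p = 0.0042). ICOSLG, the ligand of ICOS, moved the other way, with r = -0.677 (permutation p = 1e-05, adjusted p = 0.00042) and rho = -0.556 (permutation p = 0.0007, adjusted p = 0.0098), beside r of -0.338 with CD274 and 0.0402 with PD-L1. These rows also moved with the housekeeping counts, with r = 0.520 for TNFSF10, 0.483 for CXCL2 and -0.439 for ICOSLG. With these counts held constant, ICOSLG was still called (r = -0.603, adjusted p = 0.00714), and TNFSF10 (r = 0.487, adjusted p = 0.0722) and CXCL2 (r = 0.263, adjusted p = 0.435) were not. Without the 2 tumors farthest from the median of the difference none of the 42 rows passed the permutation test after adjustment, and 8 had an unadjusted p below 0.05. Over the 30 deeper tumors 12 rows were related to the difference, with TNFSF10 (0.630), TBX (0.617), PRF1 (0.612) and CXCL2 (0.594) the most positive and BCL6 (-0.580) and KDM6B (-0.457) negative. ICOSLG was not among them (r = -0.360, adjusted p = 0.123), and 6 of the 16 T cell rows were. The relations of CXCL2, TNF, GZMB, IL8 and IFNγ to the mean of both probes were all called with the housekeeping counts held constant, with r of 0.718, 0.605, 0.566, 0.486 and 0.562.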

How the data were processed

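RNA of 34 tumors and 2 mucosa samples was hybridised to a custom NanoString nCounter panel of 44 immune and 4 housekeeping genes, which also carries 6 positive and 6 negative controls. The authors analysed the counts in nSolver, whose version is not given in the sources used here, and deposited a normalized signal per gene and sample. The housekeeping genes had the same geometric mean in every sample. Each sample's signals are whole counts times a factor. Of 1728 values, 1714 (99.2%) were whole within 0.01, and the recovered counts served for depth, background and counting intervals only, not for a count model. Signals were tested as log2 without a pseudocount.

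Tumors were compared with mucosa by limma 3.58.1 (R 4.3.3), with Benjamini-Hochberg adjustment over 44 rows, and relations across tumors by Pearson's r and Spearman's rho with 100000 two-sided permutations and adjustment over 42 rows (Python 3.11.15, numpy 2.4.6, pandas 2.3.3, scipy 1.17.1; figures by matplotlib 3.10.9). The threshold was an adjusted p of 0.05. Intervals of r use Fisher's transformation. The steps were tested on simulated data, with tumor against mucosa changes of 4 (log2) and relations of slope 0.9. This does not show whether smaller differences, such as those of CD274 and PD-L1, could be detected. Batches were taken from the positive controls, whose second row was 2.59 to 2.85 times the third in 9 samples and 1.54 to 1.77 times in 27. Patients 33 and 34 had the most alike tumors, which were also counted as 1 sample. Other settings were equal medians, housekeeping scaling without SDHA, a pseudocount of 20, values raised to background, removal of rows under a mean log2 of 5, the 30 tumors of at least 100000 counts, and CD3e held constant. Subtraction of the negative controls, housekeeping counts held constant, the depth minimum in the comparison with mucosa and limma within the first batch were chosen after seeing the data.

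The text names CD274, PD-L1, the listed genes, the 6 rows most like and the 3 least like the mean of both probes, and rows past the threshold for their difference. BCL6, KDM6B, SELP, NCR1, PAX5, TGFβ and the housekeeping rows were added after their values were seen. Some panel rows are not reported here. The genes and lists were chosen with earlier results of these data known. Immunohistochemical densities were not analysed here.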

Additional observations from a re-analysis of the deposited data

How the results depend on the processing

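The agreement of the probes kept its call under all 13 alternatives, with r from 0.793 to 0.938. The comparison with mucosa stayed uncalled under every alternative, and its direction did not hold. After rescaling to equal medians the difference was -0.28 for CD274, -0.37 for PD-L1 and -0.32 for their mean. Leaving out a mucosa sample gave -0.23 to 2.09 for CD274, 0.20 to 1.47 for PD-L1 and -0.017 to 1.78 for the mean, the lower value without patient 8. No paired analysis was possible because the labels do not mark which samples came from the same dog.

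Relations of CXCL2 and TNF to the mean were called under all 14 alternatives (r 0.524 to 0.724 and 0.505 to 0.662). GZMB was not called with equal medians (r = 0.386). IL8 was lost in 3 alternatives, and IFNγ in 6, with r of 0.444 to 0.608 over its 14. Equal medians gave 3 rows for CD274, 10 for PD-L1, 9 for the mean and 6 for the difference, and under it r with the mean turned to -0.459 for CD3e (adjusted p = 0.0311), -0.270 for PD-1, -0.046 for PDCD1LG2 and -0.018 for TBX. GATA3 and CD8a were also called with the mean under equal medians. This scaling divides by the immune genes themselves. Without the 2 tumors farthest by each measure there were 3 rows for CD274, 2 for PD-L1, 7 for the mean (PRF1 and TNFSF10 added) and 0 for the difference. With CD3e held constant there were 8 for CD274 and 9 for the difference, and r of MX1 with the mean was -0.036. A pseudocount of 20, like subtraction of the negative controls, left 3 rows for the mean. For the difference, 5 rows were called by Spearman's rho, 5 in the later batch, 5 with the closest pair counted once, 12 in the 30 deeper tumors and 1 with housekeeping counts held constant. The causes were not tested. Counts down to 21 limit the PD-L1 probe in the shallow tumors, and having 2 mucosa samples limits the comparison with mucosa.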

Other observations

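With the authors' scaling, the genes named here from outside the lists had no called relation to PD-L1. The endothelial and platelet adhesion gene SELP had r = 0.243 with the mean of both probes (adjusted p = 0.392), the NK cell receptor NCR1 0.154 (adjusted p = 0.639), the B cell factor PAX5 0.00344 (adjusted p = 0.985) and TGFβ -0.0951 (adjusted p = 0.742). KDM6B, a histone demethylase, had r = 0.376 with PD-L1 and 0.134 with CD274, neither called (adjusted p = 0.206 and 0.633). After rescaling to equal medians KDM6B and SELP were called with PD-L1 and with the mean, and BCL6 was called with PD-L1.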
